A study of Drosophila melanogaster with 37 samples.

Results

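Males of an isogenic Canton-S strain of Drosophila melanogaster, dissected on the day after eclosion, gave the 2 tissues compared here. Messenger RNA (the PolyA fraction) of male heads was set against that of male bodies, with 2 libraries of each. These are 4 of the 37 samples of the study and 4 of its 12 PolyA libraries, the others being testis, ovary, and the heads and bodies of females of the same strain. No mutation, transgene or drug is named for any of these groups. A head holds the brain, the compound eyes, the antennae and the mouthparts, with fat body, muscle and cuticle. A body holds the thorax and abdomen. The study's methods name the body and the internal male tract as separate parts of the dissection, and do not say whether a body library came from flies whose tract had been removed. The testis libraries come from the whole internal tract, with its glands and ducts as well as the testis, and their levels are given beside those of the body. How many flies went into a library, and whether replicates were separate collections, was not given in the sources used here. The p-values therefore measure the spread between libraries, pooled over the 6 groups of PolyA libraries and not taken from the 4 male libraries alone.

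The head of a fly is largely nervous tissue and eye. In the photoreceptors light isomerizes a rhodopsin, a G protein passes the signal to a phospholipase C, and TRP channels open. The body carries the flight and leg muscles, the gut, the Malpighian tubules (the excretory organ), most of the fat body and, in males, the glands that make the seminal fluid. The clusters of Hox genes, which give segments their identity, are used in order along the same axis.

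Levels are TPM (transcript abundance), a unit that divides reads by gene length and by the library's total. Mitochondrial genes took 57.9 and 41.7% of all TPM in the male head libraries, against 48.9 and 2.83% in the male body libraries. Nearly all of it lay on 1 gene, mt:ATPase8, with 54.9 and 39.2% in male heads, against 46.9% in male body replicate 1 and a listed 0 in male body replicate 2. TPM was therefore rescaled to a sum of 1000000 over the 17522 genes off the mitochondrial genome, and this nuclear TPM is the unit of every level below. The tables hold no read counts. The ratio of coverage to FPKM in them puts the depth of the 4 libraries within 1.13 times of each other.

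Of 13215 genes with a mean nuclear TPM of at least 1, 4084 were higher (30.9% of those tested) and 4219 were lower (31.9%) in male heads than in male bodies at an adjusted p under 0.05 (limma on log2(nuclear TPM + 1), Benjamini-Hochberg adjusted). Differences of at least 4-fold were less even, with 3155 genes lower (23.9%) and 1535 higher (11.6%) in heads. The median difference over all genes was 0.24 on the log2 scale, 0.29 within replicate 1 and 0.18 within replicate 2. All 8303 called genes (62.8%) had the same sign in both replicates, and so did 93.1% of the 13215 genes. A call rests on the mean of the same 2 differences, so the agreement among called genes is nearly set by the selection. Without each library in turn 2610 genes (19.8%) were called higher and 3441 (26%) lower every time. In bulk samples such as these, fewer cells of a type and less RNA per cell cannot be told apart.

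The balance of higher and lower genes depended on how the libraries were scaled. On the deposited TPM 1578 genes were higher and 3913 lower (median -0.22). By the median of ratios 2871 were higher and 5467 lower (median -0.36), on the deposited FPKM 2743 and 4515 (median -0.20), and after quantile normalization 5888 and 3657 (median 0.56). In a fit blocked on the replicate, 4992 genes (37.8%) were higher and 4464 (33.8%) lower. In the nuclear TPM, the deposited TPM, the median of ratios and the quantile values alike, 1537 genes (11.6%) were called higher and 3423 (25.9%) lower. A call can be lost or turn with the scaling, and some differences of over 4-fold also lost theirs. Counts for these 4 scalings therefore stand beside those of the gene lists below. The background shares to read them against are 30.9% higher and 31.9% lower for the nuclear TPM, and 11.6% and 25.9% for the 4 scalings.

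**Figure D1:**
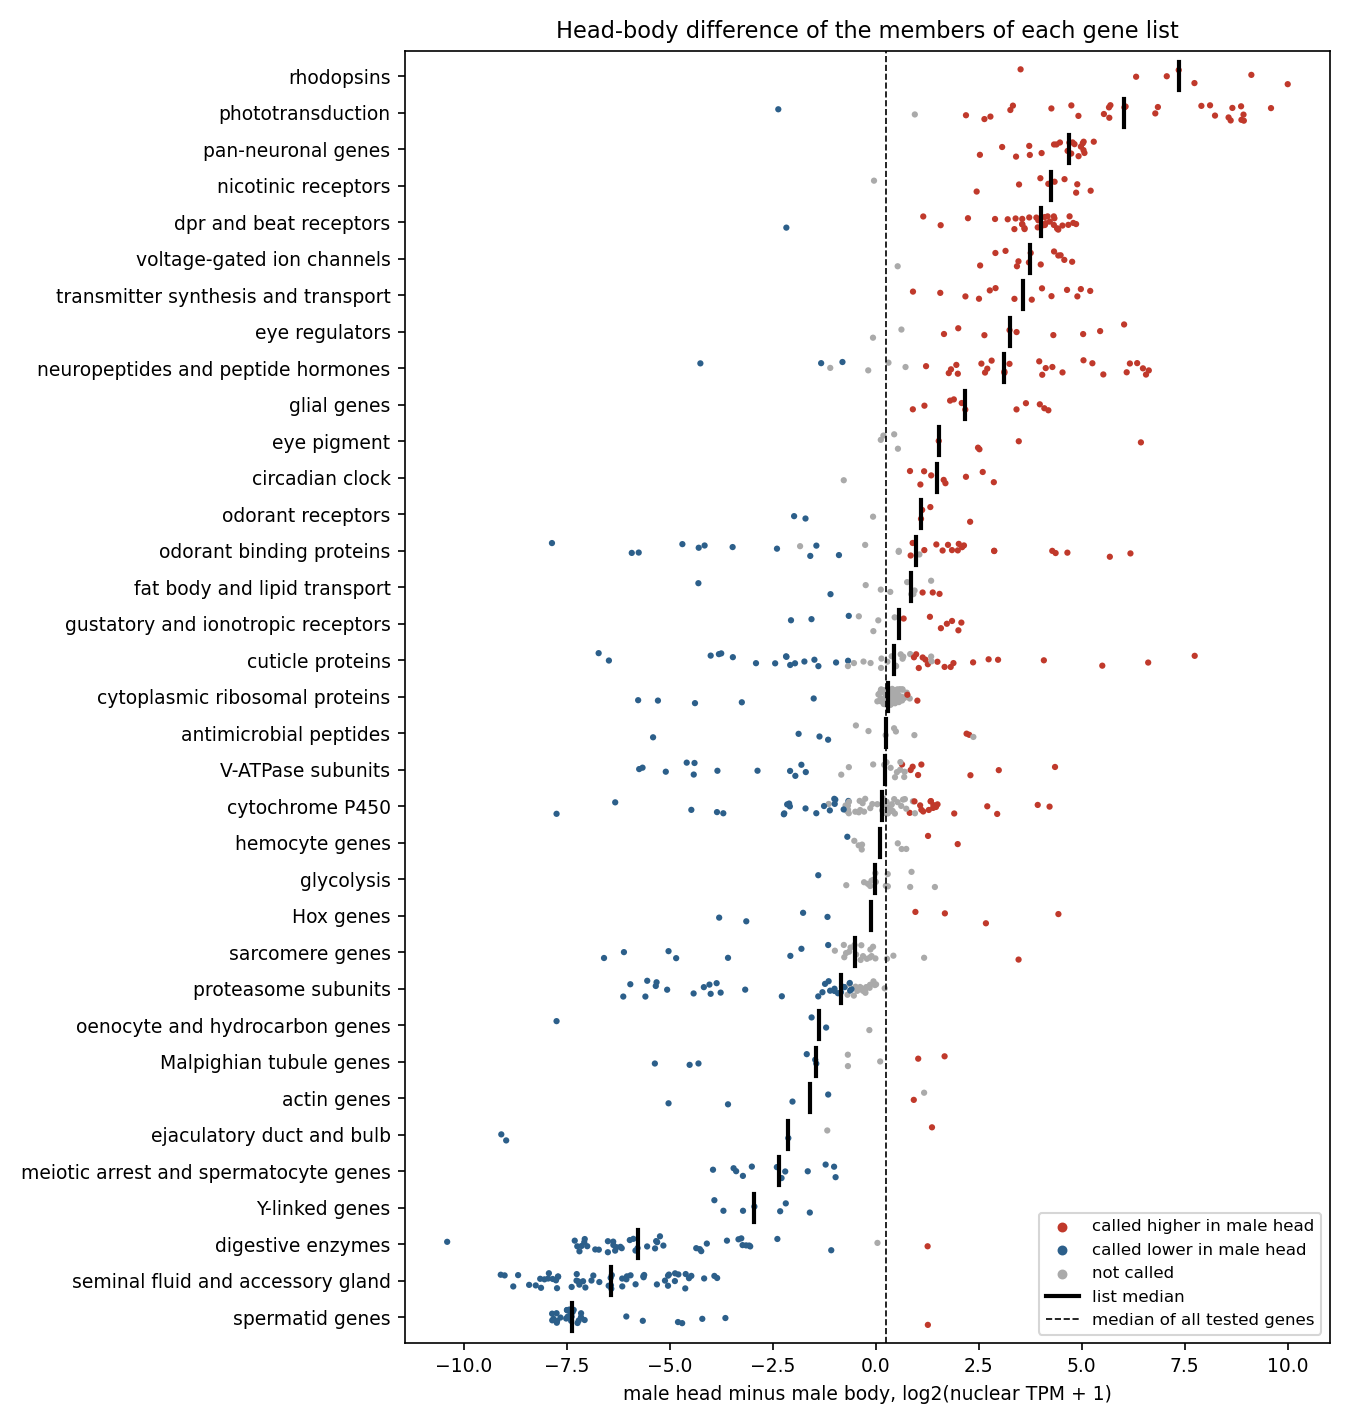
Each point is 1 tested gene of a list, placed by its male head minus male body difference in log2(nuclear TPM + 1); red points were called higher in male heads, blue points lower, grey points neither, black bars are list medians and the dashed line is the median of all 13215 tested genes (0.24). Lists run from rhodopsins (median 7.35) at the top to spermatid genes (median -7.39) at the bottom.

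Rhodopsins and the proteins of the light response showed the largest excess in heads. All 7 rhodopsin genes were higher in male heads, in each of the 4 scalings, with a median log2 difference of 7.35 against 0.24 over all genes. Together they made up 3.22 and 2.57% of nuclear TPM in male heads, against 0.00561 and 0.00182% in male bodies. ninaE, the Rh1 opsin of the outer photoreceptors, had 29047 and 22869 in male heads, against 46.7 and 12.3 in male bodies (log2 difference 10, SE 0.66, adjusted p = 9.75e-07). It was the second most abundant nuclear transcript of the male head. The opsins of the inner photoreceptors came next. Rh3 had 1583 and 1505 in male heads, against 2.56 and 1.17 in male bodies (log2 difference 9.12, SE 0.37, adjusted p = 2.65e-07). Rh4 had 845 and 691 in male heads, against 4.40 and 3.05 in male bodies (log2 difference 7.35, SE 0.26, adjusted p = 2.65e-07). Rh5 had 265 and 221 in male heads, against 0.908 and 0.733 in male bodies and Rh6 369.7 and 257 in male heads, against 0.684 and 0.251 in male bodies, both far apart between tissues (log2 differences 7.06 and 7.74). Rh2, the opsin of the ocelli (the small simple eyes on top of the head), stood lower, with 88.7 and 95.5 in male heads, against 0.166 and 0.164 in male bodies (log2 difference 6.32, SE 0.22, adjusted p = 2.65e-07). Rh7 was the least abundant, at 15.8 and 19.1 in male heads, against 0.688 and 0.528 in male bodies (log2 difference 3.51, SE 0.18, adjusted p = 3.70e-07). The order of mean levels in male heads was ninaE, Rh3, Rh4, Rh6, Rh5, Rh2 and Rh7. The neighbours Rh6 and Rh5 overlapped between libraries (369.7 and 257 against 265 and 221), and the other neighbours did not.

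**Figure D2:**
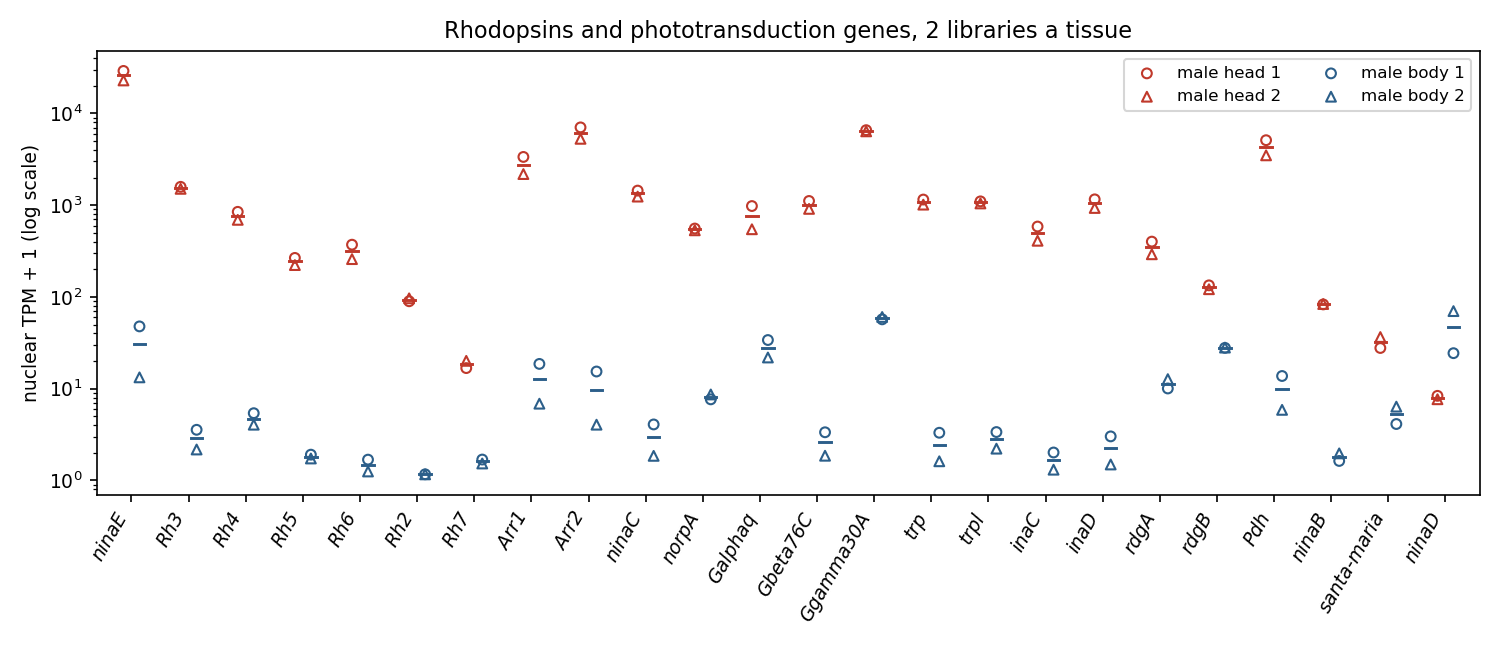
Nuclear TPM + 1 (log scale) of 24 rhodopsin and phototransduction genes in male head libraries (red, left) and male body libraries (blue, right), circles for replicate 1, triangles for replicate 2 and bars for the mean of 2. Heads lie above bodies for every gene drawn except ninaD, which had 7.35 and 6.66 in male heads, against 23.4 and 69.0 in male bodies.

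Of 29 phototransduction genes 27 were higher in male heads, 1 was lower and 1 was not called (26 higher and 1 lower in the 4 scalings), with a median log2 difference of 6.04. The arrestins, which stop an active rhodopsin, were among the most abundant. Arr2 had 7040.1 and 5284 in male heads, against 14.4 and 3.05 in male bodies (log2 difference 9.59, SE 0.71, adjusted p = 1.89e-06), and Arr1 had 3354 and 2181 in male heads, against 17.6 and 5.86 in male bodies (log2 difference 7.90). The G protein subunits were in uneven excess. Gbeta76C, the beta subunit of photoreceptors, had 1110.0 and 909.9 in male heads, against 2.35 and 0.857 in male bodies (log2 difference 8.66, SE 0.36, adjusted p = 2.69e-07). Ggamma30A, its gamma partner, had 6566 and 6373 in male heads, against 56.0 and 59.4 in male bodies (log2 difference 6.79, SE 0.26, adjusted p = 2.65e-07), and Galphaq, whose product also works outside the eye, had 977 and 545 in male heads, against 32.9 and 20.9 in male bodies (log2 difference 4.75, SE 0.58). Galphaq and Ggamma30A were thus still listed well above Gbeta76C in bodies.

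The downstream effectors were high in the same way. norpA, the phospholipase C, had 555 and 531 in male heads, against 6.65 and 7.65 in male bodies (log2 difference 6.06). The channel genes trp and trpl had nearly equal levels, trp with 1150.3 and 1012 in male heads, against 2.31 and 0.616 in male bodies (log2 difference 8.87, SE 0.41, adjusted p = 2.81e-07) and trpl with 1099 and 1043 in male heads, against 2.37 and 1.22 in male bodies (log2 difference 8.62, SE 0.31, adjusted p = 2.65e-07). inaD, the scaffold that holds the channel, the phospholipase and a protein kinase together, had 1156 and 931 in male heads, against 2.02 and 0.491 in male bodies (log2 difference 8.93, SE 0.44, adjusted p = 3.11e-07), and ninaC, a myosin with a kinase domain, had 1440.1 and 1239 in male heads, against 3.07 and 0.852 in male bodies (log2 difference 8.93, SE 0.45, adjusted p = 3.34e-07). Pdh, a retinol dehydrogenase of the pigment cells that recycles the chromophore, reached 5104 and 3489.9 in male heads, against 12.7 and 4.87 in male bodies (log2 difference 8.88, SE 0.52, adjusted p = 5.73e-07). The chaperone Xport, needed to deliver TRP and rhodopsin, had 827 and 484 in male heads, against 1.34 and 0.451 in male bodies (log2 difference 8.42, SE 0.44, adjusted p = 3.70e-07), and the photoreceptor gene rtp 987 and 941 in male heads, against 2.0 and 1.17 in male bodies (log2 difference 8.56, SE 0.35, adjusted p = 2.65e-07). retinin, a protein of the corneal lens, was the sixth most abundant nuclear transcript of the male head by the mean of both libraries, with 6918 and 8965 in male heads, against 11.7 and 5.74 in male bodies (log2 difference 9.73, SE 0.36, adjusted p = 2.65e-07).

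Carotenoid uptake divided between the tissues. ninaD, a scavenger receptor that takes up carotenoids, was the only phototransduction gene called lower in heads, with 7.35 and 6.66 in male heads, against 23.4 and 69.0 in male bodies (log2 difference -2.37, SE 0.43, adjusted p = 0.000884). The oxygenase ninaB, which cleaves carotenoids to retinal, had 81.8 and 82.6 in male heads, against 0.630 and 0.970 in male bodies (log2 difference 5.54), and the scavenger receptor santa-maria 26.7 and 35.5 in male heads, against 3.12 and 5.37 in male bodies (log2 difference 2.64). Calx, a sodium-calcium exchanger, had 126 and 88.1 in male heads, against 54.9 and 53.4 in male bodies, and its difference passed the threshold only with the replicate number as a block (adjusted p = 0.0576 without it and 0.0387 with it).

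Promoters of these genes are known for the rhodopsin core sequence RCSI, a conserved element just upstream of the start site. RCSI was searched for on both strands in the 300 bases from 250 before to 50 after the gene start of the deposited tables (genome build dm6, bases from the RefSeq assembly of the same build). It was present in 4 of 7 rhodopsin windows (57.1%) and in 6 of 29 phototransduction windows (20.7%). Of the windows of all 13182 tested genes on the chromosome arms, 667 held it (5.06%), as did 72 of 1535 genes at least 4-fold higher in male heads (4.69%) and 186 of 3152 genes at least 4-fold lower (5.90%). It was thus no more frequent among head-high genes as a whole than among all genes, and a match is only a description of the letters. The stretches below show the matches in capitals, read 5′ to 3′ along the gene, for the rhodopsin genes and for 5 phototransduction genes whose levels are given above or follow below.
ninaE: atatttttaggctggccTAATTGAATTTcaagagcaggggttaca
Rh3: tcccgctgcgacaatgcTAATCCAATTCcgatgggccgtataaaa
Rh4: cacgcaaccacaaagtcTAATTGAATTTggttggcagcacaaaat
Rh6: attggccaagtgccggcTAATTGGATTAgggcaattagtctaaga
Arr1: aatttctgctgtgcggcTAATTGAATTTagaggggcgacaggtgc
ninaC: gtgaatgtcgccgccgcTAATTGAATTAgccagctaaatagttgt
Gbeta76C: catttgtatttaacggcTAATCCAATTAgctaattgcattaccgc
rtp: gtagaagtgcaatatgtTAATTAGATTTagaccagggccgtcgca
ninaG: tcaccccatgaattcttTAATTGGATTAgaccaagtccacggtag
Their positions were chr3R:19888249-19888293 (minus strand) for ninaE, chr3R:20082476-20082520 (minus) for Rh3, chr3L:16862592-16862636 (minus) for Rh4 and chr3R:15483063-15483107 (plus) for Rh6. Arr1 was read at chr2L:18078184-18078228 (plus), ninaC at chr2L:7377614-7377658 (plus), Gbeta76C at chr3L:19687541-19687585 (plus), rtp at chr3R:5237350-5237394 (minus) and ninaG at chr3R:11421710-11421754 (minus). Except in Rh4 and ninaG, where it began 102 and 44 bases before the gene start, the match began 53 to 79 bases before it. Rh6 held a further match 240 bases before its start. The sites of Rh6, Gbeta76C, ninaC and ninaG read as RCSI on both strands. ninaG, an oxidoreductase of chromophore synthesis, had 23.4 and 18.3 in male heads, against 0.0897 and 0.172 in male bodies (log2 difference 4.26). trpl also held a match, which is not printed. The 250 bases before the start of ninaE (chr3R:19888207-19888456, minus strand) give the context of its site.
ninaE: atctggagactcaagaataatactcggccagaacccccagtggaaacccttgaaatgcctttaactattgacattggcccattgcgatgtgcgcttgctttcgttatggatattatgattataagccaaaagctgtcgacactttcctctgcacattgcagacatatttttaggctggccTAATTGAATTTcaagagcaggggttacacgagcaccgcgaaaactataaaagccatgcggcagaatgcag

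Genes that direct eye development and photoreceptor fate kept adult head levels. Of 11 tested, 9 were higher in male heads (8 in the 4 scalings) and 2 were not called. toy and ey are the Pax6 genes of the fly. toy had 120.1 and 121 in male heads, against 0.682 and 1.07 in male bodies (log2 difference 6.03, SE 0.23, adjusted p = 2.65e-07), and ey had 30.4 and 32.8 in male heads, against 0.713 and 0.576 in male bodies (log2 difference 4.31). gl, a zinc finger protein of photoreceptors, had 54.1 and 43.3 in male heads, against 0.206 and 0.0644 in male bodies (log2 difference 5.45). eya, a phosphatase and coactivator, had 53.8 and 44.9 in male heads, against 6.62 and 7.55 in male bodies (log2 difference 2.64, SE 0.31, adjusted p = 4.19e-05). Optix, a homeobox gene of the eye field, did not differ in this test, with 29.4 and 31.8 in male heads, against 33.3 and 31.0 in male bodies (log2 difference -0.07, SE 0.32). Its level was 65.1 and 93.8 in the testis libraries and 0.491 and 0.135 in female bodies, so that in females heads stood far above bodies (26.8 and 29.0 in female heads).

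Eye pigment genes were less uniform, 5 of 9 being higher in male heads (4 in the 4 scalings) and 4 not called. The largest difference was in se, which acts in the synthesis of the red drosopterins, with 201 and 139.9 in male heads, against 1.10 and 0.803 in male bodies (log2 difference 6.44, SE 0.32, adjusted p = 3.09e-07). pr, an enzyme of the same pteridine route, had 609 and 479 in male heads, against 101 and 91.1 in male bodies (log2 difference 2.48, SE 0.27, adjusted p = 2.54e-05), and Hn, phenylalanine hydroxylase, 195 and 305 in male heads, against 68.2 and 103 in male bodies (log2 difference 1.53, SE 0.32, adjusted p = 0.0022). The transporter genes w and st had values close to each other in both tissues. w had 12.7 and 15.5 in male heads, against 7.16 and 14 in male bodies (log2 difference 0.45, SE 0.43), and st 10.2 and 11.1 in male heads, against 7.11 and 13.2 in male bodies (log2 difference 0.12, SE 0.27).

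All 21 pan-neuronal genes were higher in male heads in each of the 4 scalings, and their log2 differences spanned 2.53 to 5.29 with a median of 4.70. They sum to 10684 and 9935 nuclear TPM in male heads, against 415 and 460 in male bodies. cpx, which clamps synaptic vesicle fusion, had 2861 and 2572 in male heads, against 90.1 and 87.0 in male bodies (log2 difference 4.92, SE 0.26, adjusted p = 3.93e-07). nSyb, the synaptobrevin of vesicles, had 1891 and 1815 in male heads, against 46.3 and 63.8 in male bodies (log2 difference 5.06, SE 0.30, adjusted p = 5.66e-07), and Syt1, the calcium sensor of release, 1088 and 814 in male heads, against 32.0 and 26.0 in male bodies (log2 difference 4.98, SE 0.29, adjusted p = 5.89e-07). Appl, the fly homologue of the amyloid precursor protein, had the largest difference, with 556 and 521 in male heads, against 11.5 and 14.2 in male bodies (log2 difference 5.29, SE 0.22, adjusted p = 2.79e-07). elav, the RNA-binding protein used as a marker of neurons, had 61.2 and 72.4 in male heads, against 2.85 and 5.78 in male bodies (log2 difference 3.72, SE 0.37, adjusted p = 1.17e-05). Bodies thus kept a few percent of the head level of most of these genes.

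Transmitter genes were all in excess, 14 of 14 being higher in male heads (12 in the 4 scalings; median 3.58). Histamine is the transmitter of photoreceptors, and Hdc, which makes it, had the largest difference, with 45.8 and 46.4 in male heads, against 0.304 and 0.250 in male bodies (log2 difference 5.21, SE 0.20, adjusted p = 2.65e-07). Gad1, the GABA-synthesizing enzyme, had 718 and 629 in male heads, against 44.0 and 36.5 in male bodies (log2 difference 4.03, SE 0.27, adjusted p = 1.17e-06). Cha, which makes acetylcholine, had 105 and 119 in male heads, against 2.6 and 3.03 in male bodies (log2 difference 4.89). The glutamate transporter gene VGlut had 113 and 123 in male heads, against 3.95 and 3.59 in male bodies (log2 difference 4.64). Vmat, which loads amines into vesicles, had 190.0 and 248 in male heads, against 18.0 and 22.6 in male bodies (log2 difference 3.37, SE 0.28, adjusted p = 3.79e-06). The smallest difference was in ple, tyrosine hydroxylase, which also acts in cuticle tanning, with 182 and 206 in male heads, against 96.6 and 110.2 in male bodies (log2 difference 0.90, SE 0.34, adjusted p = 0.0426). The call on ple was lost without each of the 4 libraries in turn (log2 difference 0.81 to 0.996, adjusted p = 0.0874 to 0.167).

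Receptors and channels of neurons were high in heads too. Of 10 nicotinic receptor subunits 9 were higher in male heads (9 in the 4 scalings; median 4.26), led by nAChRalpha6 with 99.6 and 97.9 in male heads, against 1.55 and 1.82 in male bodies (log2 difference 5.22, SE 0.20, adjusted p = 2.65e-07). The most abundant subunit, nAChRbeta1, had 669 and 528 in male heads, against 20.8 and 18.2 in male bodies (log2 difference 4.86, SE 0.29, adjusted p = 6.51e-07). Of 14 voltage-gated channels 13 were higher (13 in the 4 scalings; median 3.74). Among them were the potassium channel gene Sh, with 393 and 265 in male heads, against 15.0 and 13.1 in male bodies (log2 difference 4.43, SE 0.34, adjusted p = 2.23e-06), and Ca-alpha1T, a T-type calcium channel, with 107 and 69.4 in male heads, against 2.30 and 2.12 in male bodies (log2 difference 4.77, SE 0.35, adjusted p = 1.83e-06). Cell surface receptors of the dpr and beat families, proteins of neuronal surfaces, were higher for 33 of 34 genes (31 in the 4 scalings; median 4.0). dpr12 had 161 and 157 in male heads, against 4.56 and 4.45 in male bodies (log2 difference 4.86, SE 0.23, adjusted p = 2.81e-07). The exception was dpr17, with 41.6 and 35.3 in male heads, against 199.8 and 156 in male bodies (log2 difference -2.17, SE 0.50, adjusted p = 0.00366), and 353 and 439.7 in the testis libraries, against 2.94 and 0.634 in female bodies.

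All 11 glial genes tested were higher in male heads (7 in the 4 scalings; median 2.17), less so than the neuronal ones. wrapper, a glial cell adhesion protein, had 48.1 and 53.6 in male heads, against 1.61 and 2.09 in male bodies (log2 difference 4.19, SE 0.20, adjusted p = 2.95e-07), and repo, the transcription factor that marks glia, had 29.9 and 36.0 in male heads, against 1.76 and 2.64 in male bodies (log2 difference 3.42, SE 0.24, adjusted p = 1.56e-06). Gs2, glutamine synthetase, was the most abundant, with 2389 and 2845 in male heads, against 539 and 698 in male bodies (log2 difference 2.09, SE 0.34, adjusted p = 0.000401), and the glutamate transporter gene Eaat1 had 299 and 322 in male heads, against 65.8 and 70.6 in male bodies (log2 difference 2.17, SE 0.25, adjusted p = 3.81e-05). nrv2, a sodium pump subunit of glia, had 574 and 582 in male heads, against 163 and 147 in male bodies (log2 difference 1.89, SE 0.25, adjusted p = 0.000104) and 200.5 and 281 in the testis libraries. The calls on moody, loco and axo depended on single libraries. moody had an adjusted p of 0.0792 without male head replicate 2 and 0.0852 without male body replicate 1. For loco it was 0.0557 to 0.204 over all 4 omissions, and for axo 0.0534 without male head replicate 2 and 0.0859 without male body replicate 1.

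Outside the lists, noe and Cam were also among the most abundant nuclear transcripts of the male head. noe, a nervous-system RNA, had 12186 and 16620.1 in male heads, against 269 and 568 in male bodies (log2 difference 5.18, SE 0.40, adjusted p = 2.34e-06), and Cam, the calcium sensor calmodulin that cells use widely, had 9995 and 6253 in male heads, against 1226 and 928 in male bodies (log2 difference 2.89, SE 0.64, adjusted p = 0.00322).

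Neuropeptide and peptide hormone genes were higher in male heads for 26 of 33 tested (23 in the 4 scalings), lower for 3 (2 in the 4 scalings) and not called for 4. Ilp2, an insulin-like peptide of the brain's median secretory cells, had 133 and 107 in male heads, against 0.482 and a listed 0 in male bodies (log2 difference 6.63, SE 0.26, adjusted p = 2.65e-07). Ilp5 and Dsk, made in the same cells, had log2 differences of 6.56 and 6.49. Pdf, the peptide of the clock neurons, had 111 and 105 in male heads, against 5.05 and 4.12 in male bodies (log2 difference 4.29). Nplp3 was the most abundant nuclear transcript of both male head libraries and of male body replicate 2, with 44454 and 42282 in male heads, against 11411 and 10963 in male bodies (log2 difference 1.95, SE 0.29, adjusted p = 0.000243). Nplp2 had 5246 and 5974 in male heads, against 4561 and 4493 in male bodies and did not pass the test (log2 difference 0.31, SE 0.43). Akh, CCHa2 and ETH were lower in heads, 3 genes of which 1 was still called without male head replicate 2. Akh, the adipokinetic hormone of the corpora cardiaca (glands beside the oesophagus), had 3.04 and 1.17 in male heads, against 77.9 and 39.7 in male bodies (log2 difference -4.26, SE 0.59, adjusted p = 0.000133). CCHa2, a nutrient-dependent peptide of fat body and gut, had 415 and 417 in male heads, against 1151 and 949 in male bodies (log2 difference -1.33, SE 0.41, adjusted p = 0.0174), and its adjusted p was 0.0660, 0.0653 and 0.0915 without male head replicate 1, male head replicate 2 and male body replicate 1. ETH, the ecdysis triggering hormone, had 0.979 and 0.545 in male heads, against 1.44 and 2.86 in male bodies (adjusted p = 0.0377, and 0.183 without male head replicate 2). After quantile normalization the ETH difference turned to 0.49.

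Of the 10 circadian clock genes 9 were called higher in male heads, but only per and Pdfr in the 4 scalings. Without male head replicate 1, male head replicate 2 or male body replicate 1 the count fell to 5, 5 and 4. per had 44.6 and 41.2 in male heads, against 4.35 and 5.79 in male bodies (log2 difference 2.86, SE 0.29, adjusted p = 1.60e-05). Pdfr, the receptor of the PDF peptide, had 59.4 and 72.3 in male heads, against 7.20 and 13.8 in male bodies (log2 difference 2.6, SE 0.38, adjusted p = 0.000194). tim had 201 and 158 in male heads, against 49.2 and 60.3 in male bodies (log2 difference 1.69, SE 0.32, adjusted p = 0.00119) and cry, the blue-light receptor, 89.3 and 101 in male heads, against 29.0 and 46.8 in male bodies (log2 difference 1.34, SE 0.33, adjusted p = 0.00601), with an adjusted p of 0.0589 for cry without male body replicate 1. Clk had 14.7 and 20.3 in male heads, against 29.1 and 31.7 in male bodies, both heads below both bodies, and passed the threshold with the replicate block (adjusted p = 0.00873) but not without it (0.0623). The testis libraries held 41.5 and 71.3 of Clk, more than any of the 4 libraries compared. The time of day of collection was not given in the sources used here.

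Chemosensory genes split by family. Only 34 of 51 odorant binding protein genes, 7 of 61 odorant receptor genes and 14 of 126 gustatory and ionotropic receptor genes reached the level tested. Odorant binding proteins were higher in male heads for 18 genes (13 in the 4 scalings) and lower for 11 (10 in the 4 scalings). Obp49a, of taste organs, had 272 and 268 in male heads, against 2.97 and 2.51 in male bodies (log2 difference 6.18, SE 0.28, adjusted p = 2.81e-07). Obp44a was the most abundant, with 3635 and 3864 in male heads, against 898 and 957 in male bodies (log2 difference 2.01, SE 0.35, adjusted p = 0.000703). At the other end Obp51a had 6.10 and 0.959 in male heads, against 981 and 767 in male bodies (log2 difference -7.86, SE 0.98, adjusted p = 6.32e-05), and 1924 and 1902 in the testis libraries. Obp56g had 442 and 373 in male heads, against 1532 and 1383 in male bodies and did not pass the test (log2 difference -1.84, SE 0.91). Its differences within replicates 1 and 2 were close, at -1.79 and -1.89, with both bodies above both heads. The SE is pooled over the 6 groups, and Obp56g had 18.4 and 1.07 in female bodies and 14.7 and 3.19 in ovaries. Obp99c had overlapping levels at 1229 and 1792 in male heads, against 1638 and 1928 in male bodies.

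Receptors were near the limit of the tables. A receptor near 0 in 1 tissue could reach the level tested through the other tissue alone. How many were called higher or lower is set in part by that. Odorant receptors counted 4 higher and 2 lower (1 and 1 in the 4 scalings). Or45b overlapped, with 0.95 and 2.26 in male heads, against 2.53 and 0.974 in male bodies (log2 difference -0.07, and 0.94 after quantile normalization). Only 1 was still higher without male head replicate 1, and the lower count was 1 without male body replicate 1 and 0 without male body replicate 2, where these genes fell under the level tested. Or63a had 5.65 and 4.43 in male heads, against 0.381 and 0.0947 in male bodies (log2 difference 2.29, SE 0.18, adjusted p = 2.97e-06). Or59b, a lower one, had a listed 0 and 0.0382 in male heads, against 2.69 and 3.41 in male bodies, and 6.48 and 11.3 in the testis libraries. Gustatory and ionotropic receptors counted 7 higher and 3 lower (3 and 0 in the 4 scalings). Ir76a had 12.8 and 12 in male heads, against 2.13 and 2.55 in male bodies (log2 difference 2.0, SE 0.23, adjusted p = 3.61e-05), and Ir76b, a co-receptor, had 3.04 and 3.40 in male heads and was listed at 0 in both male bodies. Of the 3 lower ones, Ir75d was listed at 0 in both heads, against 3.74 and 2.67 in male bodies, with 6.72 and 6.93 in the testis libraries. Gr32a, a taste receptor for male pheromone, had 1.42 and 2.09 in male heads, against 3.41 and 3.21 in male bodies, and its call was lost without male head replicate 1 (adjusted p = 0.00883 with all libraries and 0.0747 without it). The lower count was 5 without male head replicate 2 and 1 without male body replicate 1, and after quantile normalization the Gr32a difference turned to 0.59.

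Hox genes separated the tissues in the order of their expression along the body. The 4 anterior genes lab, pb, Dfd and Scr were higher in male heads and the 4 posterior genes Antp, Ubx, abd-A and Abd-B were lower. In the 4 scalings 3 and 2 of them were called, lab being lost in the deposited TPM and the median of ratios and Antp and Ubx in the quantile values. Dfd, of the maxillary segment, had 22.4 and 26.5 in male heads, against 0.271 and 0.0843 in male bodies (log2 difference 4.43, SE 0.18, adjusted p = 2.69e-07). Scr, of the labial segment and first thoracic segment, had 9.17 and 12 in male heads, against 0.818 and 0.790 in male bodies (log2 difference 2.67, SE 0.26, adjusted p = 1.02e-05), pb had 5.0 and 5.03 in male heads, against 0.951 and 0.817 in male bodies (log2 difference 1.68, SE 0.17, adjusted p = 1.44e-05) and lab 4.89 and 6.84 in male heads, against 2.80 and 2.21 in male bodies (log2 difference 0.96, SE 0.23, adjusted p = 0.00488). Antp, of the thorax, had 2.67 and 1.71 in male heads, against 6.03 and 6.19 in male bodies (log2 difference -1.17, SE 0.20, adjusted p = 0.000562), and Ubx 0.583 and 0.310 in male heads, against 3.67 and 4.14 in male bodies (log2 difference -1.77, SE 0.19, adjusted p = 2.10e-05). The abdominal genes were nearly absent from heads. abd-A had 0.0686 and 0.0910 in male heads, against 6.91 and 10.5 in male bodies (log2 difference -3.15, SE 0.44, adjusted p = 0.00015), and Abd-B 0.0714 and 0.0678 in male heads, against 11.9 and 16.3 in male bodies (log2 difference -3.80, SE 0.38, adjusted p = 1.26e-05). In the testis libraries Abd-B had 6.08 and 17.5.

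**Figure D3:**
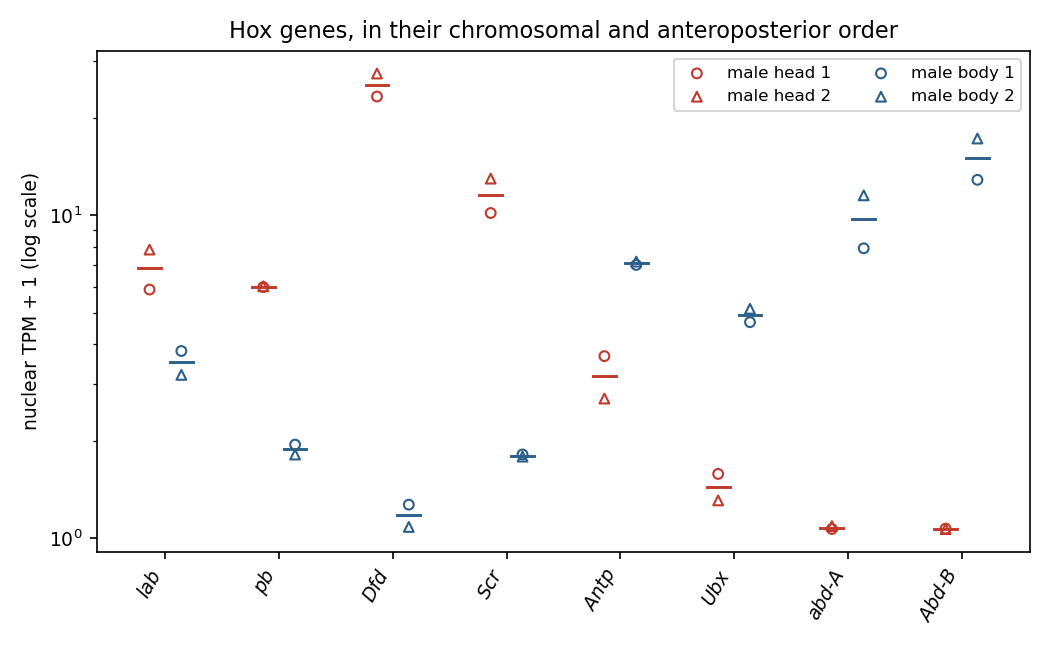
Nuclear TPM + 1 (log scale) of the 8 Hox genes, from anterior to posterior, in male head libraries (red, left) and male body libraries (blue, right), circles for replicate 1, triangles for replicate 2 and bars for the mean of 2. Head levels exceed body levels from lab to Scr, and body levels exceed head levels from Antp to Abd-B.

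Digestive enzymes were lower in heads almost throughout. Of 43 digestive enzyme genes tested 41 were lower in male heads (40 in the 4 scalings), 1 was higher and 1 was not called, with a median log2 difference of -5.79. The Jonah genes encode serine proteases of the midgut. Jon99Ciii had 37.4 and 49.7 in male heads, against 3787 and 9245 in male bodies (log2 difference -7.07, SE 1.37, adjusted p = 0.00134), and Jon99Cii 31.9 and 31.5 in male heads, against 3041 and 7552 in male bodies (log2 difference -7.20, SE 0.49, adjusted p = 1.21e-06). Both stood more than 2 times higher in body replicate 2 than in body replicate 1. alphaTry, a trypsin, had 13.9 and 10.9 in male heads, against 1391 and 3216 in male bodies (log2 difference -7.31, SE 0.75, adjusted p = 1.56e-05). The neighbouring trypsin betaTry was listed at 0 in both male heads, against 882 and 2089 in male bodies (adjusted p = 6.03e-06). These tandem copies are so alike that reads may be shared between them, so their separate levels are uncertain. The maltase gene Mal-B2 was the exception, with 79.7 and 94.6 in male heads, against 30.4 and 42.0 in male bodies (log2 difference 1.26, SE 0.27, adjusted p = 0.00236), in the nuclear TPM but not in the 4 scalings.

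Malpighian tubule genes were lower in male heads for 6 of 11 (5 in the 4 scalings) and higher for 2. Uro, urate oxidase and a marker of the tubule, had 0.459 and 0.266 in male heads, against 50.2 and 60.4 in male bodies (log2 difference -5.37, SE 0.22, adjusted p = 2.65e-07). The phosphatase gene Aph-4 had 49.6 and 39.3 in male heads, against 124 and 166 in male bodies (log2 difference -1.68, SE 0.34, adjusted p = 0.00168). Irk2, a potassium channel also used outside the tubule, had 128 and 136 in male heads, against 34.4 and 48.3 in male bodies (log2 difference 1.67, SE 0.23, adjusted p = 0.000135), and Lkr, the leucokinin receptor, 4.17 and 3.56 in male heads, against 1.43 and 1.33 in male bodies (log2 difference 1.03, SE 0.16, adjusted p = 0.000283).

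Muscle genes differed by isoform and not as a group. Of 29 sarcomere genes 8 were lower in male heads (8 in the 4 scalings), 1 was higher and 20 were not called. The largest differences were in flight muscle genes. TpnC4, the troponin C of indirect flight muscle, had 6.92 and 4.56 in male heads, against 629 and 657 in male bodies (log2 difference -6.60, SE 0.37, adjusted p = 4.71e-07). The flight muscle actin gene Act88F had 37.1 and 34.4 in male heads, against 584 and 2465 in male bodies (log2 difference -5.03, SE 0.73, adjusted p = 0.0002) and fln, flightin, 8.16 and 10.5 in male heads, against 350.2 and 1446 in male bodies (log2 difference -6.12, SE 0.67, adjusted p = 2.45e-05). In the opposite direction the troponin C gene TpnC25D had 1416 and 1147 in male heads, against 126 and 104.07 in male bodies (log2 difference 3.47, SE 0.27, adjusted p = 2.53e-06). The myosin light chains did not pass the test, Mlc1 with 3069 and 2305 in male heads, against 3900.5 and 5249.8 in male bodies (log2 difference -0.77, SE 0.34, adjusted p = 0.0759) and Mlc2 with 3689.6 and 2605 in male heads, against 4593 and 5139 in male bodies (log2 difference -0.65, SE 0.35, adjusted p = 0.133). By the median of ratios 19 sarcomere genes were lower, and with the replicate block 9 were lower and 2 higher. Without male head replicate 2 or male body replicate 2, 5 were lower.

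Of 6 actin genes 4 were lower in male heads (4 in the 4 scalings) and 1 was higher, and 2 were still lower without male head replicate 2 or male body replicate 2. Act79B, of thoracic and leg muscle, had 909 and 87.1 in male heads, against 2632 and 4414 in male bodies (log2 difference -3.59, SE 1.04, adjusted p = 0.0131). Its 2 male head values lie far apart, its call was lost without male head replicate 2 (log2 difference -1.91, adjusted p = 0.0996), and without male body replicate 2 the adjusted p was 0.0700. Female heads had 661 and 122 of Act79B. The cytoplasmic actin gene Act5C had 1316 and 1346 in male heads, against 541 and 912 in male bodies (log2 difference 0.92, SE 0.35, adjusted p = 0.0414), in the nuclear TPM and quantile values only, and its adjusted p was 0.112, 0.126 and 0.273 without male head replicate 1, male head replicate 2 and male body replicate 1. Act57B had 3767 and 5349 in male heads, against 1333 and 2975 in male bodies, and passed the threshold only with the replicate block (adjusted p = 0.163 without it and 0.0185 with it).

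Of 4 oenocyte and hydrocarbon genes 3 were lower in male heads (2 in the 4 scalings). Cyp4g1, the oenocyte enzyme that makes cuticular hydrocarbons, had 42.7 and 22.4 in male heads, against 5103 and 9305 in male bodies (log2 difference -7.75, SE 0.63, adjusted p = 3.12e-06) and was the fifth most abundant nuclear transcript of the male body by the mean of both libraries. Cpr, the reductase that serves these enzymes, had 132 and 143 in male heads, against 324 and 509 in male bodies (log2 difference -1.56, SE 0.45, adjusted p = 0.0134), with an adjusted p of 0.0601 without male head replicate 1 and 0.0903 without male body replicate 2. The elongase gene bond had 46.1 and 50.7 in male heads, against 112 and 114 in male bodies (log2 difference -1.21, SE 0.30, adjusted p = 0.00606). Fat body genes moved little as a group, with 3 of 13 higher and 2 lower (0 and 2 in the 4 scalings, and 5 and 2 with the replicate block). The counts were 0 higher and 3 lower by the median of ratios, and 6 higher and 2 lower after quantile normalization. Without male head replicate 2 or male body replicate 1, 1 was lower. Fbp1, the receptor of larval serum proteins, had 4.16 and 5.90 in male heads, against 99.5 and 138 in male bodies (log2 difference -4.31, SE 0.35, adjusted p = 3.09e-06). Lsp2, a storage protein, had 958 and 1269 in male heads, against 438 and 431 in male bodies and did not pass the test (log2 difference 1.34, SE 0.65). Both heads stood above both bodies, with a log2 difference of 1.13 in replicate 1 and 1.56 in replicate 2. Lsp2 had 3.84 and a listed 0 in the testis libraries, which share in the pooled SE. Rfabg, the lipophorin precursor, had 354 and 488 in male heads, against 142 and 178 in male bodies (log2 difference 1.38, SE 0.31, adjusted p = 0.00365), and Yp3, a yolk protein gene, 45.8 and 42.9 in male heads, against 14.3 and 14.8 in male bodies (log2 difference 1.55, SE 0.33, adjusted p = 0.00268). Yp3 had 3466 and 6488 in female heads and 1836 and 2716 in female bodies, far above both male tissues. The source of its low male levels was not tested.

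Cytochrome P450 genes split evenly in the nuclear TPM, 17 of 73 being higher and 19 lower in male heads (6 and 10 in the 4 scalings). The counts were 11 higher and 35 lower by the median of ratios and 32 higher and 12 lower after quantile normalization. Cyp313a1 had the largest excess in heads, with 451 and 506 in male heads, against 26.2 and 23.3 in male bodies (log2 difference 4.22, SE 0.33, adjusted p = 2.52e-06). Cyp4d21, a gene known for its sex-specific expression, was singled out after its values were seen: it had 159 and 151 in male heads, against 9.84 and 8.68 in male bodies (log2 difference 3.93, SE 0.21, adjusted p = 4.06e-07), while female heads had 6.38 and 7.56 and female bodies 0.335 and 0.158.

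Cuticle protein genes, 50 of 99 of which reached the level tested, were higher for 17 and lower for 17 (9 and 11 in the 4 scalings). The counts were 11 higher and 19 lower by the median of ratios and 25 higher and 11 lower after quantile normalization. The count of higher genes was 10 without male head replicate 2. Some members were listed almost entirely in 1 tissue. Cpr49Ag had 341 and 318 in male heads, against 0.632 and 0.460 in male bodies (log2 difference 7.74, SE 0.22, adjusted p = 2.06e-07), and Cpr72Ec, chosen after its values were seen, 158 and 105 in male heads, against 0.410 and 0.245 in male bodies (log2 difference 6.61). Acp65Aa had 17.3 and 11.1 in male heads, against 1334 and 1876 in male bodies (log2 difference -6.73, SE 0.70, adjusted p = 1.82e-05). The neighbouring members Cpr49Ae and Cpr49Ag thus lay on opposite sides, Cpr49Ae having 929 and 1014 in male heads, against 3750.4 and 4494 in male bodies (log2 difference -2.08, SE 0.61, adjusted p = 0.0137), with an adjusted p of 0.0577 without male head replicate 1 and 0.0640 without male body replicate 2.

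Genes of the male reproductive tract were lower in heads almost throughout. All 55 seminal fluid and accessory gland genes were lower in male heads in each of the 4 scalings (median -6.44). They took 8.23 and 3.88% of nuclear TPM in male bodies, against 0.0487 and 0.00707% in male heads. Sfp60F, a seminal fluid protein, was the most abundant nuclear transcript of male body replicate 1 but not of replicate 2, with 83.4 and 4.86 in male heads, against 21672 and 6940.2 in male bodies (log2 difference -9.11, SE 2.06, adjusted p = 0.00352). Sfp87B had 31.0 and 3.91 in male heads, against 7188 and 5823 in male bodies (log2 difference -9.01, SE 1.45, adjusted p = 0.000393) and Acp36DE, which is needed to store sperm in the mated female, 5.93 and 3.82 in male heads, against 1245 and 2157 in male bodies (log2 difference -8.15, SE 0.76, adjusted p = 8.01e-06). Acp95EF had 101 and 11 in male heads, against 12454 and 2756 in male bodies (log2 difference -7.39, SE 1.88, adjusted p = 0.00687), and its adjusted p was 0.0545 without male head replicate 2 and 0.0536 without male body replicate 1. Acp24A4, Mst57Da, Mst57Dc and BG642312, also among the 12 largest differences, had log2 differences of -8.69, -8.42, -8.26 and -8.24. Sfp60F and Acp95EF were more than 3 times as high in body replicate 1 as in replicate 2, and so they were in the testis libraries, at 15213 and 4922 for Sfp60F and 32661 and 10217 for Acp95EF.

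Of 5 genes of the ejaculatory duct and bulb 3 were lower and 1 higher in male heads (3 and 0 in the 4 scalings). PebII, a component of the mating plug, had 54.3 and 2.07 in male heads, against 13473 and 3765 in male bodies (log2 difference -9.09, SE 2.13, adjusted p = 0.00428), and Peb 17.3 and 2.92 in male heads, against 3887 and 4660.2 in male bodies (log2 difference -8.98, SE 1.24, adjusted p = 0.000136). Their namesake PebIII had 3843 and 4106 in male heads, against 1514 and 1573 in male bodies (log2 difference 1.36, SE 0.39, adjusted p = 0.0128), higher in heads in the nuclear TPM and quantile values only, and its adjusted p was 0.0586 without male head replicate 2 and 0.0572 without male body replicate 1. msopa, a gene of the male reproductive tract, had 14.9 and 3.75 in male heads, against 3356 and 3879 in male bodies (log2 difference -8.70, SE 1.10, adjusted p = 7.28e-05), and 8656 and 9575 in the testis libraries.

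Spermatogenesis genes were lower in male heads almost without exception. All 12 meiotic arrest and spermatocyte genes were lower (9 in the 4 scalings; median -2.35), and so were 28 of 29 spermatid genes (28 in the 4 scalings; median -7.39). Mst84Da, of the sperm tail, had 15.2 and 1.06 in male heads, against 1811 and 993 in male bodies (log2 difference -7.86, SE 1.60, adjusted p = 0.00184) and S-Lap3, a sperm leucyl aminopeptidase, 3.95 and a listed 0 in male heads, against 654 and 407 in male bodies (log2 difference -7.86, SE 1.11, adjusted p = 0.000155). Mst87F, of the same protein family as Mst84Da, had 13.6 and 1.46 in male heads, against 1366 and 857 in male bodies (log2 difference -7.50, SE 1.34, adjusted p = 0.0008). sa, a testis-specific TAF, had 0.467 and a listed 0 in male heads, against 17.9 and 17.7 in male bodies (log2 difference -3.95, SE 0.30, adjusted p = 2.11e-06), and twe, the meiotic Cdc25 phosphatase, 2.36 and 1.92 in male heads, against 34.9 and 29.1 in male bodies (log2 difference -3.39, SE 0.45, adjusted p = 0.000102). bol, a regulator of meiotic translation, stood out by its level in heads, with 146 and 183 in male heads, against 341 and 322 in male bodies (log2 difference -1.01, SE 0.33, adjusted p = 0.0215). Its adjusted p was 0.121, 0.0884 and 0.0628 without male head replicate 1, male body replicate 1 and male body replicate 2. The exception was Mst85C, which had 15.8 and 20.8 in male heads, against 5.38 and 8.94 in male bodies and was higher in heads (log2 difference 1.26, SE 0.40, adjusted p = 0.0191). The call was lost without male head replicate 2 (log2 difference 1.08) or male body replicate 1 (0.94). Mst85C was listed by its symbol, and its levels are not those of a testis gene. It had 2.71 and 4.01 in the testis libraries, against 26.8 and 60.1 in ovaries and 24.6 and 30.2 in female bodies.

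The Y chromosome carries genes used in the male germ line. Of 10 Y-linked genes 7 reached the level tested and 3 did not. Their levels in heads were at or near 0, so a gene could reach the level tested through the bodies alone, and how many were called lower is set largely by that. The 10 genes sum to 0.0936 and 0.190 in male heads, against 75.7 and 42.0 in male bodies. The 3 below the level tested, kl-2, kl-3 and PRY, were listed at 0 in both male heads, against 1.11 to 1.62 in male bodies. Pp1-Y2, a protein phosphatase, had 0.0741 and 0.0612 in male heads, against 20.6 and 11.1 in male bodies (log2 difference -3.92, SE 0.31, adjusted p = 2.52e-06), ARY a listed 0 and 0.106 in male heads, against 16.6 and 9.62 in male bodies (log2 difference -3.70, SE 0.30, adjusted p = 3.24e-06) and Ppr-Y was listed at 0 in both male heads, against 13.2 and 5.15 in male bodies.

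Testis levels were also counted over all called genes, with the members of these lists left in. Of the 4219 genes lower in male heads 68.4% had at least 10 nuclear TPM in both testis libraries, against 19.4% of the 4084 genes higher in male heads and 44.5% of all genes tested. A level of at least 10 in both testis libraries with under 1 in both female bodies was found for 30.9% of the genes lower and 0.171% of the genes higher in male heads, against 10.1% of all genes tested. A gene near 0 in heads could reach the level tested through the bodies alone, so this split is set in part by that.

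Low levels of these genes were also listed in tissues that lack the organ. For the 31 seminal fluid genes with at least 100 nuclear TPM in both male bodies and both testis libraries, the sum in male heads was 0.588 and 0.177% of that in the male body of the same replicate number. In female heads, from flies without these glands, the same genes summed to 0.669 and 0.175% of the male body. For 16 photoreceptor genes the male bodies held 0.209 and 0.0860% of the male head sum, and the testis libraries 0.120 and 0.116%. The male head levels behind the largest differences of the seminal fluid genes were thus close to those of female heads, and their source was not tested.

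Ribosomal protein genes differed little. Of 87 cytoplasmic ribosomal protein genes 79 were not called, 3 were higher and 5 lower in male heads (0 and 5 in the 4 scalings, and 6 and 5 with the replicate block), and their median log2 difference was 0.30 against 0.24 over all genes. After quantile normalization 20 were higher, and without male head replicate 1, male head replicate 2 or male body replicate 1 the higher count was 1, 0 and 0. RpLP2 had 2426 and 1801 in male heads, against 2238 and 1607 in male bodies (log2 difference 0.14, SE 0.39) and RpS29 3236 and 3008 in male heads, against 2867 and 2535 in male bodies (log2 difference 0.21, SE 0.31). The 5 lower ones included RpL10Aa, a copy of RpL10Ab, with 0.906 and 0.160 in male heads, against 119 and 53.9 in male bodies (log2 difference -5.77, SE 0.74, adjusted p = 7.57e-05), and 218 and 157 in the testis libraries.

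Proteasome subunits were lower in male heads for 29 of 47 (23 in the 4 scalings; 15 by at least 4-fold), and the other 18 were not called. The common subunit genes differed modestly, as Prosbeta1 with 77.1 and 92.4 in male heads, against 175 and 193 in male bodies (log2 difference -1.11, SE 0.23, adjusted p = 0.00183). The testis copy Prosalpha6T had 0.794 and 0.133 in male heads, against 112 and 87.6 in male bodies (log2 difference -6.13, SE 0.57, adjusted p = 7.75e-06), with 216 and 219.9 in the testis libraries. Of 32 vacuolar ATPase subunits tested 12 were lower (8 in the 4 scalings) and 8 higher (3 in the 4 scalings, and 3 without male head replicate 1, male head replicate 2 or male body replicate 1). The counts were 14 lower and 3 higher by the median of ratios, and 8 lower and 9 higher after quantile normalization. VhaM9.7-d had 0.109 and 0.202 in male heads, against 61.0 and 60.9 in male bodies (log2 difference -5.75, SE 0.36, adjusted p = 7.98e-07) and 122 and 168 in the testis libraries, whereas its paralogue VhaM9.7-a had 145 and 148 in male heads, against 6.41 and 6.04 in male bodies (log2 difference 4.35, SE 0.45, adjusted p = 1.55e-05). The most abundant subunit gene, Vha16-1, had 1770.1 and 2499 in male heads, against 944 and 2050.2 in male bodies and did not pass the test (log2 difference 0.60, SE 0.56).

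Glycolytic genes were not called for 14 of 15 (11 of 15 with the replicate block, which called 2 higher and 2 lower, while 3 were higher without male body replicate 2). By the median of ratios 5 were lower, and after quantile normalization 2 were higher and 1 lower. Gapdh1 had 1119 and 1218 in male heads, against 983 and 2061 in male bodies (log2 difference -0.29, SE 0.41). ImpL3, lactate dehydrogenase, was lower, with 18.5 and 26.0 in male heads, against 50.1 and 70.8 in male bodies (log2 difference -1.40, SE 0.38, adjusted p = 0.00972), and its adjusted p was 0.0730 without male head replicate 1 and 0.0704 without male body replicate 2.

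Antimicrobial peptide genes, 13 of 20 of which reached the level tested, were higher for 2 and lower for 4 (2 and 1 in the 4 scalings, and 4 and 4 with the replicate block). After quantile normalization 6 were higher and 2 lower. The lower count was 2 without male head replicate 1 and 1 without male body replicate 1. CecA1, a cecropin, had 1.12 and 1.47 in male heads, against 113 and 81.3 in male bodies (log2 difference -5.41, SE 0.60, adjusted p = 2.82e-05), and 129 and 86.1 in the testis libraries, against 2.79 and 0.465 in female bodies. Def, defensin, had 22.5 and 12.8 in male heads, against 3.22 and 2.62 in male bodies (log2 difference 2.20, SE 0.53, adjusted p = 0.00502). Drsl5, of the drosomycin family, had 37.7 and 23.3 in male heads, against 6.57 and 4.35 in male bodies (log2 difference 2.27, SE 0.43, adjusted p = 0.00126). Drs, drosomycin, had 99.5 and 79.1 in male heads, against 149.98 and 103 in male bodies (log2 difference -0.48, SE 0.74, adjusted p = 0.588). Of 10 hemocyte genes 2 were higher and 1 lower, none of them in the 4 scalings, and the higher count was 1, 1 and 0 without male head replicate 1, male head replicate 2 and male body replicate 1. By the median of ratios 2 were higher and 5 lower. The lower one, eater, a phagocytic receptor, had 1.4 and 2.61 in male heads, against 2.98 and 4.68 in male bodies (log2 difference -0.69, adjusted p = 0.03). Its call was lost without male head replicate 1 or male body replicate 2 (adjusted p = 0.216 and 0.179), and its difference turned to 0.52 after quantile normalization. The collagen IV gene vkg, made by hemocytes and fat body, had 41.7 and 74.2 in male heads, against 23.5 and 46.1 in male bodies (log2 difference 0.74, SE 0.52).

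The RNAs of male dosage compensation check the sex of the libraries and also differed between the tissues. roX1 had 744 and 1011 in male heads, against 88.1 and 173 in male bodies (log2 difference 2.80, SE 0.47, adjusted p = 0.000515), and 6.16 and 4.88 in female heads. roX2 had 114 and 72.2 in male heads, against 17.7 and 7.57 in male bodies (log2 difference 2.85, SE 0.42, adjusted p = 0.000225), and 1.49 and 0.767 in female heads. Both were higher in male heads in the 4 scalings.

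By chromosome, and leaving the Y aside, the small chromosome 4 stood out, with 76 of 99 tested genes higher in male heads (76.8%, and 41.4% in the 4 scalings) and 6 lower. On the X 37.7% of 2070 genes were higher and 25.1% lower, and on the left arm of chromosome 2 27.3% of 2545 genes were higher and 37.1% lower. The other autosomal arms lay between these, with 29.1 to 31.0% higher and 31.9 to 32.7% lower. On the Y 0 of 25 tested genes were higher and 23 were lower (92%, and 80% in the 4 scalings). As for the listed Y-linked genes, that count is set largely by the level tested. Gene length differed as well. The 1535 genes at least 4-fold higher in male heads spanned a median of 7789 bases from start to end (quartiles 2954 and 24285), against 1160 bases (quartiles 726 and 1992) for the 3155 genes at least 4-fold lower and 2147 bases for all genes tested.

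The log2 differences of replicate 1 and replicate 2 had a Pearson r of 0.969 across the 13215 genes, which are not independent replicates. For ninaE the difference was 9.25 in replicate 1 and 10.75 in replicate 2, for Appl 5.48 in replicate 1 and 5.11 in replicate 2, for TpnC4 -6.31 in replicate 1 and -6.88 in replicate 2 and for Sfp60F -8.00 in replicate 1 and -10.21 in replicate 2. The gap in ninaE came from the male bodies (46.7 and 12.3) more than from the male heads. Male head replicates differed by a median of 0.22 and male body replicates by 0.34 in log2 value.

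**Figure D4:**
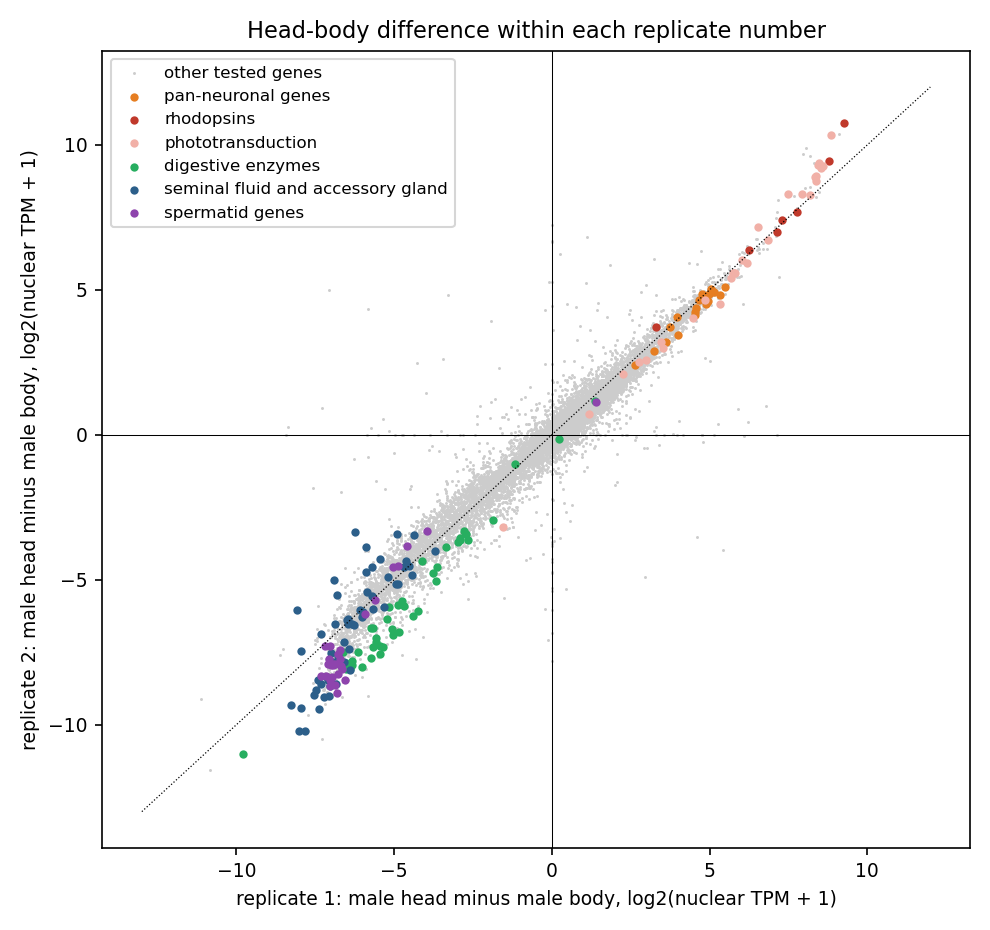
Each point is 1 tested gene, with its male head minus male body difference in log2(nuclear TPM + 1) in replicate 1 (x axis) and in replicate 2 (y axis), coloured for 6 gene lists; the dotted line marks equal values. Seminal fluid and spermatid genes lie in the lower left corner, rhodopsins and phototransduction genes in the upper right.

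Heads and bodies of females of the same strain gave the test of what differed between the sexes. Of 13077 genes tested the male head-body difference lay above the female one for 2784 (21.3%) and below it for 3069 (23.5%), with a median of 0.03 over all genes. None of the 7 rhodopsin, 21 pan-neuronal and 14 transmitter genes was called in limma without the replicate block, and 1, 6 and 1 of them had an unadjusted p under 0.05. With the block 1 rhodopsin lay below, 2 pan-neuronal genes lay above and 2 below, and 2 transmitter genes lay below. In a fit on only the libraries compared 1 pan-neuronal gene lay above and 5 below, and 2 transmitter genes lay below. By the median of ratios, which moves the median of all genes to -0.78, 2, 14 and 10 of them lay below the female difference, while after quantile normalization 3 pan-neuronal genes lay above and 1 below, and 2 transmitter genes above and 2 below. ninaE had a log2 difference of 10 in males and 10.13 in females, and Appl of 5.29 in males and 5.84 in females. Other vision and neuron lists held calls in the fit without the block, against 21.3% above and 23.5% below over all genes. Phototransduction counted 2 above and 1 below of 29, eye regulators 0 and 3 of 11 and eye pigment 1 and 0 of 9. Glial genes counted 1 and 3 of 11, neuropeptides 1 and 3 of 33 and dpr and beat receptors 1 and 5 of 34. Voltage-gated channels counted 0 and 1 of 14, nicotinic receptors 1 and 0 of 10 and clock genes 1 and 1 of 10. Of 45 digestive enzymes 5 lay above and 3 below, but 1 above and 14 below by the median of ratios, and 1 above and 5 below without male body replicate 1.

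Genes of the reproductive organs differed most between the sexes. Of 55 seminal fluid genes 53 lay below the female difference, and so did 28 of 29 spermatid genes. The 6 genes furthest below by the rule were Sfp60F (difference of the differences -8.82, SE 2.92, adjusted p = 0.0344), msopa (difference of the differences -8.77, SE 1.56, adjusted p = 0.00138), PebII, Peb, Sfp24Bb and Sfp87B. The calls on Sfp60F and PebII were lost without male head replicate 2, male body replicate 1 or 2, female head replicate 1 or female body replicate 2, with an adjusted p of 0.0554 to 0.116 for Sfp60F and 0.0634 to 0.141 for PebII. With the replicate block and all libraries, the adjusted p in limma was 0.000113 for Sfp60F and 7.38e-05 for PebII. The 6 furthest above were egg coat genes, the vitelline membrane genes Vm26Ab, Vm26Aa and Vm34Ca and the chorion genes Cp7Fc, Cp36 and Cp38. Vm26Aa had 142 and 96.8 in male heads and 79.9 and 57.3 in male bodies, against 49.3 and 47.9 in female heads and 12837 and 21638 in female bodies (difference of the differences 9.17, SE 0.52, adjusted p = 1.96e-05). Among these tissues the female bodies alone stood high.

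Ribosomal protein genes showed how far this contrast depends on the scaling. In the nuclear TPM 60 of 87 lay above the female difference and 4 below (median 1.4), and in the quantile values 64 and 4, but in the deposited TPM 24 and 4 and by the median of ratios 1 and 4 (median 0.41). Without single libraries the count above ranged from 29 without male body replicate 1 to 58 without female body replicate 2, and with the replicate block it was 81. RpL40 had 1172 and 1134 in male heads, against 674 and 812 in male bodies, and 1152 and 1194 in female heads, against 2293 and 1857 in female bodies (difference of the differences 1.45, SE 0.32, adjusted p = 0.005). Its levels in the heads of both sexes lay close to each other, and female bodies stood above male bodies. Proteasome subunits counted 16 above and 15 below, and 0 above and 16 below by the median of ratios.

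**Figure D5:**
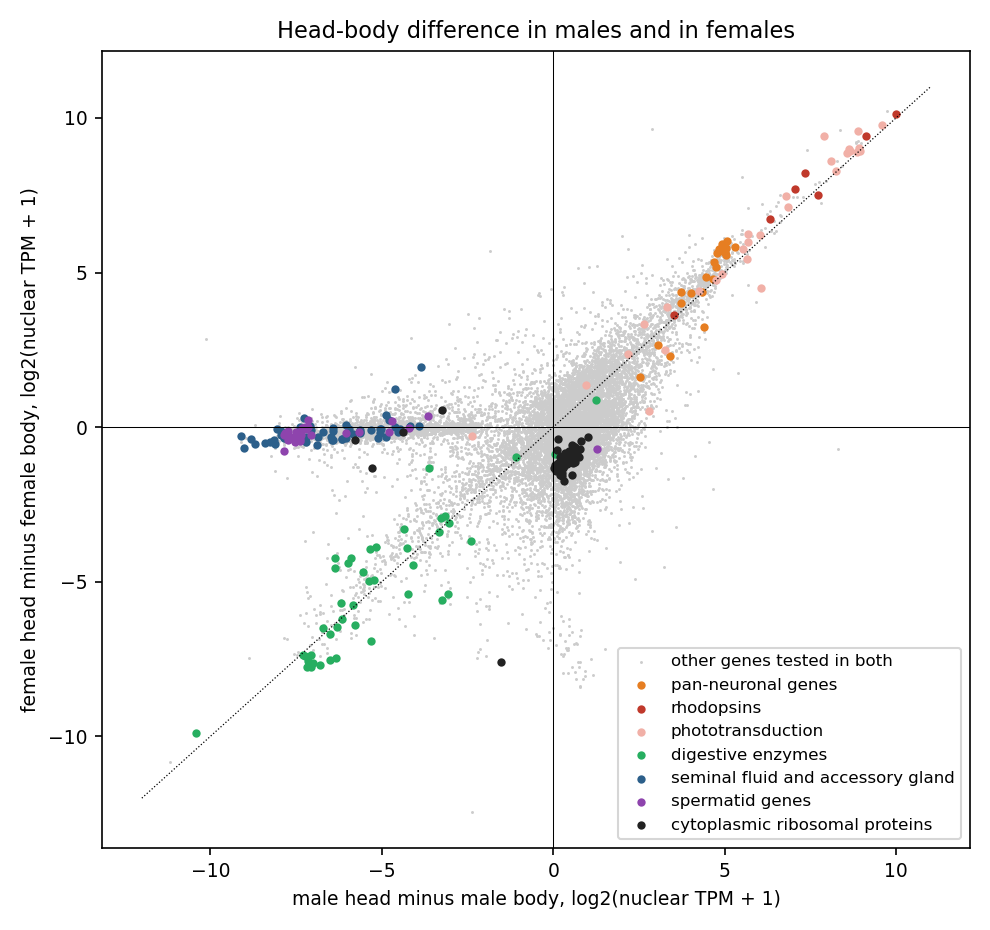
Each point is 1 gene, with the male head minus male body difference on the x axis and the female head minus female body difference on the y axis, both in log2(nuclear TPM + 1); the dotted line marks equal differences. The pan-neuronal, rhodopsin, phototransduction and digestive enzyme genes drawn lie mostly near the line. Seminal fluid and spermatid genes lie near 0 in females, and most ribosomal proteins lie below the line.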

How the data were processed

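PolyA libraries of male head and male body, 2 of each, were fitted together with the other 8 PolyA libraries of the study. The other 25 samples were not analysed here. Per the labels and the study's methods, reads were trimmed with cutadapt, aligned to dm6 with STAR 2.6.1a, and assembled into gene abundances with StringTie 2.0. The deposited tables give the authors' TPM and FPKM per gene and the read coverage, and FPKM is TPM times 1 constant per library. They hold no read counts, and TPM keeps no depth, so no counting interval is given. Whether the PolyA counting used strand is not given in the sources used here, so overlapping genes, and near-identical copies such as the trypsins, cannot be told apart.

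TPM was rescaled to 1000000 over the 17522 genes off the mitochondrial genome, and log2(nuclear TPM + 1) was fitted with limma 3.58.1 in R 4.3.3, with 1 mean for each of 6 groups (6 residual degrees of freedom, trend), over genes with a mean of at least 1 in the 4 male libraries, with Benjamini-Hochberg adjustment at 0.05. A fold change on this scale understates the change of low genes. The script was tested on simulated data. Libraries with the same replicate number deviated from their group means together (correlations of 0.287 to 0.733 over 15 pairs of groups, all above 0.1), so the numbers were taken as pairs, and a second fit was blocked on them. Every SE and adjusted p above is from the fit without the block, which ignores the pairs, unless the block is named. The SE can differ much between the 2 fits, for Sfp60F 2.06 without the block and 0.79 with it. Alternatives were the deposited TPM and FPKM, the median of ratios, quantile normalization, a pseudocount of 0.1, no filter or a mean of at least 5, no trend, only the libraries compared, and each library left out.

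The members and gene lists were chosen with earlier results of these data known. Genes were named by rule: the 12 largest called differences in each direction with a symbol other than a CG or CR number, in each list the 3 of highest level, the largest called differences and minorities of up to 5 genes, the Hox genes and rhodopsins in full, and the 6 largest sex differences in each direction. Other genes named were chosen after their values were seen. Cyclophilins and 2 other genes that matched list patterns by name only were removed. RCSI was searched as a motif of 11 letters, and 12808 of 12829 symbols had a start within 1000 bases of that in the RefSeq annotation.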

Additional observations from a re-analysis of the deposited data

Results flagged for a closer look

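The male head-body difference lay above the female one for 2784 genes and below it for 3069 genes of 13077, by the test of the difference between the sexes (limma, adjusted p under 0.05). The largest positive differences between the sexes, male minus female in log2, were 10.06 for Vm26Ab, 9.17 for Vm26Aa, 9.17 for Cp7Fc, 9.15 for Vm34Ca, 9.01 for Cp36 and 8.98 for Cp38, genes of the egg coat. The largest negative ones were -8.82 for Sfp60F, -8.77 for msopa, -8.63 for PebII, -8.62 for Peb, -8.41 for Sfp24Bb and -8.34 for Sfp87B, genes of the male reproductive tract. Of the other 161 named genes tested, 51 differed between the sexes, 12 above and 39 below. That is a smaller share than the 44.8% called over all 13077 genes.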

How the results depend on the processing

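Of 183 results on named genes 129 kept their direction and side of the threshold under every alternative, 44 lost their call and 9 gained one under at least 1, and 4 turned under quantile normalization: Or45b to 0.94, Gr32a to 0.59, ETH to 0.49 and eater to 0.52. Of 76 counts 35 stayed within 1.5 times of the reported value throughout and 41 did not. The deposited TPM, with mitochondrial genes left in, gave 1578 genes higher in male heads, and 1288 whose male difference lay above the female one. By the median of ratios that count was 1429, with 5572 below, and after quantile normalization it was 4233. Leaving out 1 library at a time gave 3031 to 3568 higher and 3708 to 4090 lower genes, and 1963 to 2448 above and 2606 to 3041 below between the sexes. With the replicate block 4992 genes were higher and 4464 lower, and between the sexes 3761 lay above and 3434 below. The block changed the call of 2 named-gene results and moved 8 counts of gene lists between heads and bodies by over 1.5 times, which stand beside those lists, and it reversed none. Replicates number 2 per tissue, so a male head or male body left out leaves that tissue with 1 library, assumed to vary like the other groups. The cause of these shifts was not tested, beyond the scale itself and the fewer libraries.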

Other observations

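The sex determination genes were chosen after their values were seen. fru, whose transcripts in neurons are spliced by sex, had 61.7 and 60.4 in male heads, against 10.8 and 13.4 in male bodies (log2 difference 2.25, SE 0.29, adjusted p = 7.82e-05), and 73.3 and 73.5 in female heads, against 4.61 and 8.17 in female bodies. dsx, the other branch of the pathway, had 23.3 and 25.9 in male heads, against 21.2 and 30.5 in male bodies and did not pass the test (log2 difference -0.05, SE 0.35, adjusted p = 0.905).

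Among the most abundant nuclear transcripts of both tissues, also chosen after their values were seen, Adh, alcohol dehydrogenase, had 6724 and 9239 in male heads, against 2940.0 and 4641 in male bodies (log2 difference 1.09, SE 0.32, adjusted p = 0.0145). sesB, the ADP/ATP translocase, had 8253 and 5941 in male heads, against 3033 and 5556 in male bodies and did not pass the test (log2 difference 0.77, SE 0.37, adjusted p = 0.0941). MtnA, a metallothionein, had 2356 and 3873 in male heads, against 4131 and 6637 in male bodies and did not pass it either (log2 difference -0.79, SE 0.38, adjusted p = 0.0965), with every head below every body library.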
